A study of Arabidopsis thaliana with 4 samples.

Results

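The 34 genes described here encode the nuclear subunits of the photosynthetic electron transport chain in Arabidopsis thaliana. They were chosen by locus identifier from a list of names and not by a cut on their measured values, but with earlier results of these data known. They are 13 photosystem I genes, 11 photosystem II genes, the cytochrome b6f gene PETC, 2 plastocyanin genes, 2 leaf ferredoxin genes, 2 genes for ferredoxin-NADP reductase (FNR) and 3 genes for the plastid ATP synthase, out of 32982 genes counted in all. All 34 passed the filter on low counts, which left 19403 genes for testing. Their lowest count in any library was 1260.

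Transcripts were measured by RNA sequencing of leaves in 4 groups of 3 libraries each. Dox local leaves had received Dox at 25 um/g, and control local leaves had received water. Dox systemic and control systemic leaves, called systematic tissue in the labels, belong by their titles to the Dox and control arms, and no treatment is given for those leaves themselves. The series title names a systemic adaptation to mitochondrial stress, and the labels do not spell out the name Dox. All plants grew on agar medium with 1% sucrose at 22 °C under 16 h of light and 8 h of dark. The labels use their genotype field for the tissue and name no line, mutation or transgene. They do not give the hour of harvest, the time since treatment or the number of plants.

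In the thylakoid membrane, photosystem II uses light to take electrons from water and passes them through the cytochrome b6f complex and the lumenal carrier plastocyanin to photosystem I. Photosystem I passes them on to ferredoxin, and FNR uses them to make NADPH, while the proton gradient drives the plastid ATP synthase. The complexes are built jointly by plastid genes, which encode most of the reaction centre proteins, and by nuclear genes such as these, whose products are imported into the chloroplast. In leaves these nuclear genes are among the most highly expressed and are known to respond to light, sugars, the clock and signals from the chloroplast.

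Library totals ranged from 18981328 to 21380652 counts, so depth was even. Counting error alone did not account for the spread inside a group, where chi-square values per degree of freedom had medians of 8.75 to 18.7. The 3 columns of a group were taken as 3 libraries, and since no label ties them to different plants, the p-values reflect library spread that may be technical. The leaf photosynthesis markers CA1, RCA, RBCS1A and LHCB1.3 were detected in every group, at a summed level of 20044 to 30782 CPM (counts scaled to a common library size with TMM factors). Markers of shoot apex and flower summed to at most 0.312 and 1.82 CPM in any library, with WUS at 0. Of 5 root markers 4 stayed under 1 CPM, with EXPA7 at 0, but PYK10 gave a root sum of 14.4 to 40.1 CPM in Dox local and 179 to 239 CPM in control local leaves, and of 6.89 to 23.9 CPM in Dox systemic and 1.74 to 77.4 CPM in control systemic leaves. Guard cell and vascular markers, 4 of 4 detected in each list, summed to 94.7 to 215 and 87.8 to 184 CPM over all libraries. Senescence markers, 2 of 3 detected with SAG12 at 0, summed to 34.9 to 53.8 CPM in Dox local, 64.6 to 177 CPM in control local, 60.6 to 159 CPM in Dox systemic and 74 to 301 CPM in control systemic leaves. The part of these markers in the results was not tested. In bulk leaf tissue, fewer cells of a type and less RNA per cell cannot be told apart.

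Compared per length of transcript, the genes covered a wide range of levels. PSBR (AT1G79040), a photosystem II protein near the oxygen-evolving complex, stood highest at a mean of 11205 TPM (a level corrected for transcript length) over 12 libraries. PETE2, the major plastocyanin gene, followed at 3078 TPM and PSBO1, which stabilises the manganese cluster of photosystem II, at 2799 TPM. PETE1, the minor plastocyanin gene, was lowest at 250 TPM, with PSAD2 at 307 TPM and FD1 at 308 TPM. In some pairs one gene carried most of the transcript: PSAD1 reached 920 TPM against 307 TPM for PSAD2, and FD2 1117 TPM against 308 TPM for FD1. Together the 34 genes took 2.82% to 3.38% of the counts in Dox local, 2.77% to 3.31% in control local, 2.74% to 3.45% in Dox systemic and 3.59% to 4.33% in control systemic libraries.

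In several libraries the genes varied together. Control local leaves showed this least, with the highest of their 3 levels in libraries 1, 2 and 3 for 7, 13 and 14 genes. Relative to each gene's mean over the 12 libraries, on the log2(CPM + 0.5) scale, 33 of 34 lay above their mean in Dox local library 1 (median 0.39) and 29 in control systemic library 1 (median 0.42). At the other end, 33 lay below it in Dox systemic library 1 (median -0.30) and 32 in Dox systemic library 3 (median -0.45). The highest of the 12 levels fell in control systemic library 1 for 17 genes and in Dox local library 1 for 12, and the lowest in Dox systemic library 3 for 17. Dox local library 1 had the lowest TMM factor, 0.787. As a share of counts the 34 genes took 3.38% there, 3.31% in control local library 2 and 3.45% in Dox systemic library 2. The median coefficient of variation of the genes was 22% in Dox local, 10.4% in control local, 16.5% in Dox systemic and 15.4% in control systemic leaves. FD1 was the most variable gene in 3 of the 4 groups, with a coefficient of 60.9% in Dox local, 76.9% in control local and 46.4% in control systemic leaves.

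**Figure D1:**
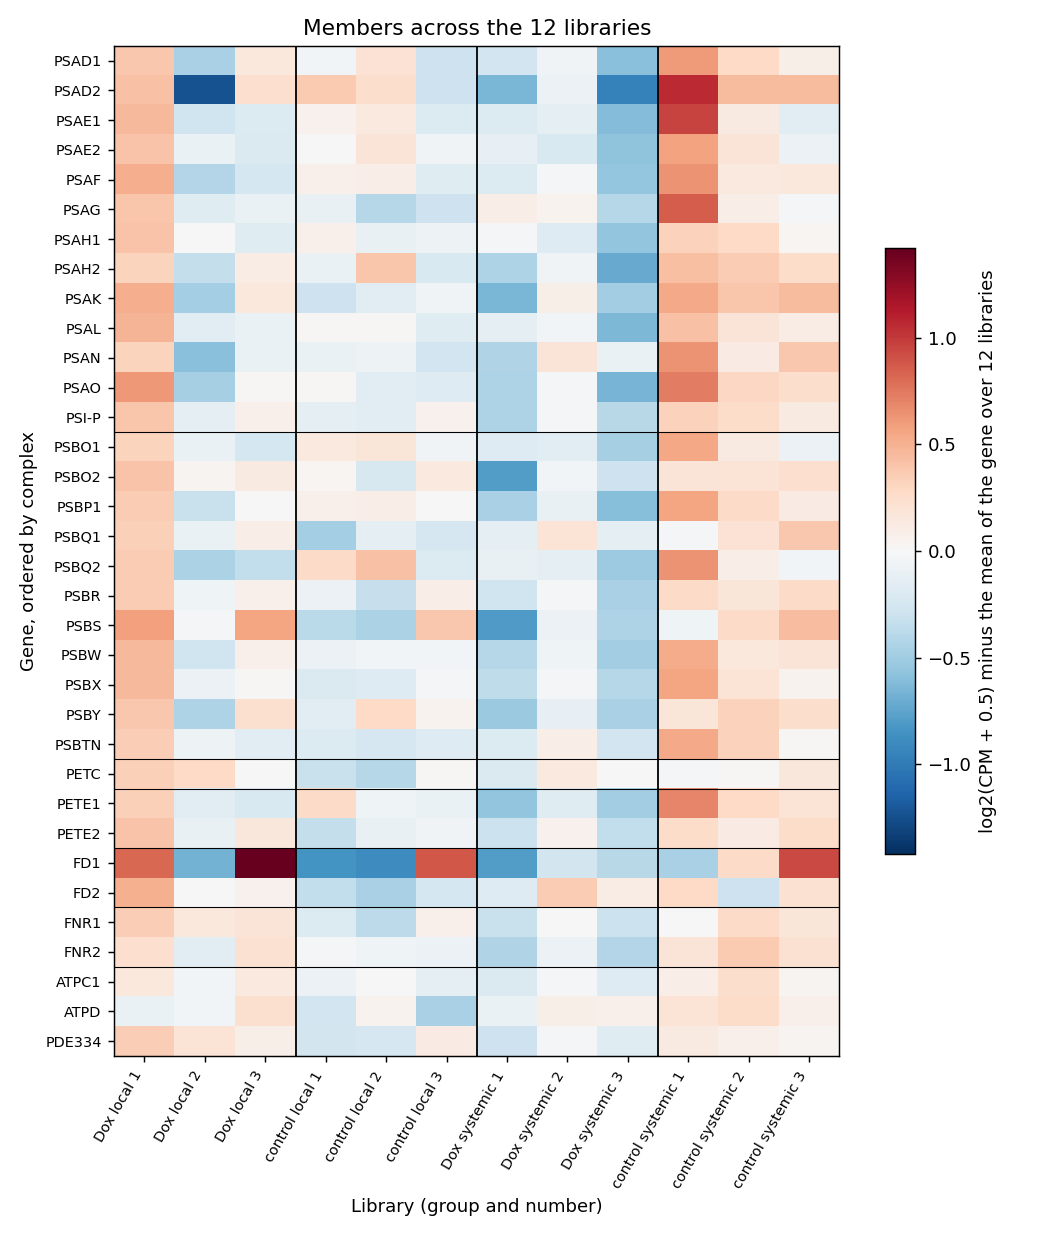
Level of each gene (rows, ordered by complex) in the 12 libraries (columns, by group and number), as log2(CPM + 0.5) minus the mean of that gene over all 12. Dox local library 1 and control systemic library 1 are red for nearly all genes, and Dox systemic libraries 1 and 3 are blue, with medians of 0.39, 0.42, -0.30 and -0.45.

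In systemic leaves, the subunit genes stood lower in Dox plants than in control plants almost throughout. The log2 fold change was negative for 33 of 34 genes, against 50.1% of all genes tested, with a median of -0.52 against -0.00 for all genes. In 24 of 34 genes every Dox systemic library lay below every control systemic library, against 8.41% of all genes. No gene of any kind passed edgeR's quasi-likelihood test at an adjusted p under 0.05 (0% of all genes, 1670 genes at an unadjusted p under 0.05), and the lowest adjusted p among the 34 was 0.451. At an unadjusted p under 0.05, 16 of the 34 were lower, against 4.79% of all genes. DESeq2 called 0.695% of the genes it tested, and 0 of the 34, where its lowest adjusted p values were 0.0548 (FNR2) and 0.056 (PETE1).

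Photosystem I genes were all on the negative side, with log2 fold changes of -1.21 to -0.44 and a median of -0.57. In 10 of 13 the libraries did not overlap, the others being PSAE1, PSAG and PSAN. PSAD, PSAE and the plastid-encoded PSAC form the stromal ridge where ferredoxin docks. PSAD2 (AT1G03130) had 103, 153 and 83 CPM in Dox systemic leaves, against 339, 222 and 221 CPM in control systemic leaves. All 3 Dox libraries were thus below the lowest control library, and the log2 fold change of -1.21 ± 0.40 (SE) was the most negative of the 34 (edgeR adjusted p = 0.487). PSAO (AT1G08380), which helps light-harvesting complex II bind photosystem I, had 692, 921 and 592 CPM in Dox systemic against 1551, 1155 and 1119 CPM in control systemic leaves. Its log2 fold change was -0.79 ± 0.29 (edgeR adjusted p = 0.516), again without overlap.

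PSAK (AT1G30380), a small membrane subunit beside the antenna, had 748, 1245 and 836 CPM in Dox systemic leaves and 1709, 1549 and 1604 CPM in control systemic leaves. The control libraries were close together and the Dox libraries were spread, with library 2 highest (log2 fold change -0.78 ± 0.28, edgeR adjusted p = 0.513). PSAH forms part of the site where light-harvesting complex II attaches in state transitions. PSAH2 (AT1G52230) had 265, 348 and 220 CPM in Dox systemic leaves, against 483, 461 and 433 CPM in control systemic leaves, for a log2 fold change of -0.72 ± 0.24 (edgeR adjusted p = 0.488). The other 9 photosystem I genes (PSAD1, PSAE1, PSAE2, PSAF, PSAG, PSAH1, PSAL, PSAN and PSI-P) had log2 fold changes of -0.69 to -0.44.

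Photosystem II genes were also negative in all 11 cases, with log2 fold changes of -0.71 to -0.21 and a median of -0.53. In 9 the libraries did not overlap, PSBQ1 and PSBTN being the others. Of the oxygen-evolving proteins, PSBO1 (-0.49), PSBO2 (-0.55) and PSBQ2 (-0.50) lay close to that median, while PSBP1 (-0.71) and PSBQ1 (-0.21) were the ends of the range. PSBS (AT1G44575), the sensor of non-photochemical quenching that dissipates excess light as heat, had 471, 781 and 607 CPM in Dox systemic leaves and 788, 998 and 1119 CPM in control systemic leaves. The groups were separated by a narrow gap, and the log2 fold change was -0.64 ± 0.30 (edgeR adjusted p = 0.585). The small membrane proteins PSBW, PSBX and PSBY were at -0.61, -0.53 and -0.61, and PSBR was at -0.49.

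Downstream of photosystem II the differences were less even. PETC (AT4G03280), the Rieske iron-sulfur protein of cytochrome b6f, had 924, 1170 and 1065 CPM in Dox systemic leaves, against 1056, 1080 and 1193 CPM in control systemic leaves. These libraries overlapped and the log2 fold change was -0.08 ± 0.20 (edgeR adjusted p = 0.947). PETE1 (AT1G76100) had 104, 136 and 109 CPM in Dox systemic leaves and 248, 187 and 176 CPM in control systemic leaves. Its log2 fold change of -0.80 ± 0.21 had the lowest edgeR adjusted p of the 34, 0.451. PETE2 was at -0.40 ± 0.23, also without overlap.

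Both ferredoxin genes overlapped between the groups. FD2 (AT1G60950), the major leaf ferredoxin, had 573, 838 and 701 CPM in Dox systemic leaves and 791, 531 and 757 CPM in control systemic leaves. It was the one gene with a positive log2 fold change, 0.02 ± 0.23 (edgeR adjusted p = 0.988). FD1 (AT1G10960), the minor form, had 80, 116 and 106 CPM in Dox systemic and 101, 168 and 266 CPM in control systemic leaves. Its log2 fold change of -0.83 was second in size but carried the largest error, ± 0.58 (edgeR adjusted p = 0.714), and was -0.42 without control systemic library 3.

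FNR2 (AT1G20020) had 735, 939 and 741 CPM in Dox systemic leaves, against 1126, 1287 and 1151 CPM in control systemic leaves, with a log2 fold change of -0.56 ± 0.19 (edgeR adjusted p = 0.507). FNR1 was at -0.35 and overlapped between groups. The ATP synthase genes ATPC1 (gamma subunit), PDE334 (a stator subunit) and ATPD (delta subunit) were at -0.26, -0.24 and -0.16. These lay nearer to 0 than the median of either photosystem. ATPC1 and PDE334 did not overlap between groups and ATPD did.

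Depth scaling and single libraries moved these sizes, while the median stayed negative. With library totals in place of TMM factors 32 of 34 genes were below 0 and the median was -0.41, while that of all genes was 0.11. The number without overlap was then 13, and the share of all genes under that scaling is not given here, so the 2 cannot be compared. Leaving out control systemic library 1 gave a median of -0.39 and leaving out Dox systemic library 2 gave -0.65. The 16 genes at an unadjusted p under 0.05 became 6 without Dox systemic library 1, 2 without Dox systemic library 3, 7 without control systemic library 1 and 9 without control systemic library 2. Shares of all genes in these runs are not given here, so the counts cannot be compared with genes at large. The 9 clock genes, all detected, summed to 202 to 271 CPM in Dox systemic against 373 to 438 CPM in control systemic leaves. Most of that sum was TOC1, at 152 ± 2.84 CPM in Dox systemic and 217 ± 47.2 CPM in control systemic leaves (SD, n = 3 each). Of 8 tested, 6 had negative log2 fold changes. PRR7, TOC1, GI and LUX lay lower without overlap, against 8.41% of all genes, while PRR5 and ELF4 overlapped. CCA1 was near level at 0.11 with overlap. LHY lay higher without overlap, against 1544 of 19403 of all genes, at 1.13 ± 0.645 CPM in Dox systemic and 0.182 ± 0.197 CPM in control systemic leaves. Its control systemic libraries were near the floor, at 0 to 0.392 CPM. The clock repressor PRR7 averaged 10.7 ± 6.64 CPM in Dox systemic and 53.5 ± 11.2 CPM in control systemic leaves (SD, n = 3 each). The part of the clock genes in the result was not tested.

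**Figure D2:**
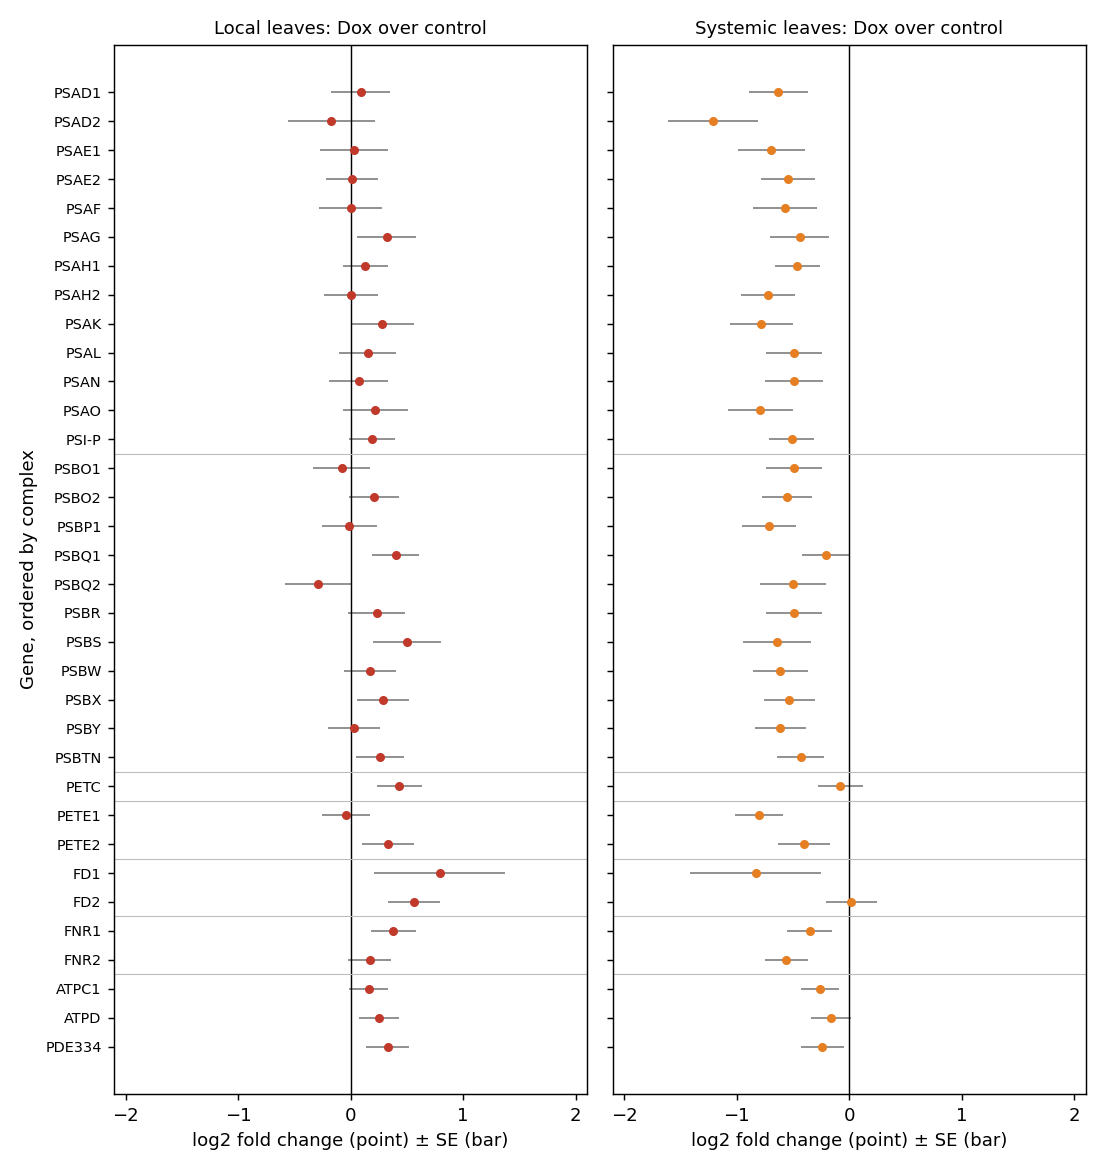
Log2 fold change of Dox over control (points) with its standard error (bars) for each gene, in local leaves (left) and systemic leaves (right). In systemic leaves 33 of 34 points lie below 0 with a median of -0.52, and in local leaves 29 of 34 lie above 0 with a median of 0.18.

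In the treated local leaves, the same genes were on the positive side in 29 of 34 cases, against 52.2% of all genes, but by small amounts. The median log2 fold change was 0.18 against 0.02 for all genes, with a range of -0.29 to 0.79. In 4 genes (PSBQ1, PSBTN, FD2 and FNR1) every Dox local library lay above every control local library, against 4.14% of all genes. At an unadjusted p under 0.05 only FD2 was higher, against 2.66% of all genes. No gene passed edgeR's quasi-likelihood test (0%, 915 genes at an unadjusted p under 0.05), and DESeq2 called 0.0632% of the genes it tested and 0 of the 34.

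FD1 had 245, 87.1 and 373 CPM in Dox local leaves, against 77.1, 74.5 and 257 CPM in control local leaves. Each group had a library several times above another, and the log2 fold change of 0.79 ± 0.58 was smaller than that spread (edgeR adjusted p = 0.902). It was 0.29 without Dox local library 3, 0.50 and 0.49 without control local libraries 1 and 2, and 1.63 without control local library 3. FD2 had 927, 657 and 682 CPM in Dox local leaves and 512, 475 and 547 CPM in control local leaves. These groups did not overlap, with a log2 fold change of 0.56 ± 0.23 (edgeR adjusted p = 0.902). PSBS, at 1233, 815 and 1217 CPM in Dox local leaves, overlapped with 632, 604 and 1074 CPM in control local leaves (0.50 ± 0.30, edgeR adjusted p = 0.902; 0.82 without control local library 3). PETC had 1350, 1295 and 1060 CPM in Dox local leaves and 857, 807 and 1078 CPM in control local leaves, and differed by 0.43 ± 0.20 on the log2 scale (edgeR adjusted p = 0.902), with overlap.

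Photosystem I genes were close to level in local leaves. Their median was 0.09, and the highest was PSAG at 0.32, a membrane subunit beside the antenna. Photosystem II genes had a median of 0.21, between PSBQ2 at -0.29 and PSBS at 0.50. The 5 genes below 0 were PSAD2, PSBO1, PSBP1, PSBQ2 and PETE1. FNR genes were at 0.38 for FNR1 and 0.17 for FNR2, and the 3 ATP synthase genes at 0.16 to 0.33.

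These values moved with single libraries. Without Dox local library 1 the median was 0.04 and 18 of 34 genes were above 0. With Dox local library 2 left out, the median was 0.29 and 14 genes did not overlap, against 12% of all genes. The number was 12 with control local library 3 left out, against 17.4% of all genes. The single gene at an unadjusted p under 0.05 became 0 without Dox local library 1, control local library 1 or control local library 2, 2 without Dox local library 3 and 6 without control local library 3. How many of all genes reached that p in these runs is not given here, so the counts have no comparison. With library totals 20 of 34 genes were above 0 and the median was 0.03, while that of all genes was -0.12. The 5 heat shock genes, all detected, summed to 736 CPM in Dox local library 1, against 40.9 and 72 CPM in the other Dox local and 16 to 67.6 CPM in the control local libraries, and their part in the result was not tested.

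Summed over each complex, the levels gave the same picture. The 34 genes together reached 27892 ± 4028 CPM in Dox systemic against 39178 ± 3100 CPM in control systemic leaves, and 35557 ± 6782 CPM in Dox local against 31238 ± 674 CPM in control local leaves (SD, n = 3 each). Photosystem I summed to 6685, 8150 and 5702 CPM in Dox systemic leaves and 12298, 9777 and 9452 CPM in control systemic leaves, a 1.54-fold lower mean. Photosystem II summed to 12882, 15616 and 11896 CPM in Dox systemic leaves, against 21102, 18456 and 18233 CPM in control systemic leaves, 1.43-fold lower. Neither pair of groups overlapped. The ratio of photosystem I to photosystem II counts within a library averaged 0.507 ± 0.0238 in Dox systemic and 0.544 ± 0.0344 in control systemic leaves, and the ranges overlapped (0.479 to 0.522 and 0.518 to 0.583).

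The smaller components differed less between the systemic groups. Plastocyanin summed to a 1.34-fold lower mean in Dox systemic than in control systemic leaves, FNR to a 1.37-fold lower one and ATP synthase to a 1.18-fold lower one. Ferredoxin reached 805 ± 151 CPM in Dox systemic and 872 ± 163 CPM in control systemic leaves, a difference within the spread. In local leaves ferredoxin gave the largest ratio of the complexes, 1.53-fold, at 991 ± 221 CPM with Dox against 648 ± 137 CPM with water, and its groups overlapped (745 to 1172 and 549 to 805 CPM).

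**Figure D3:**
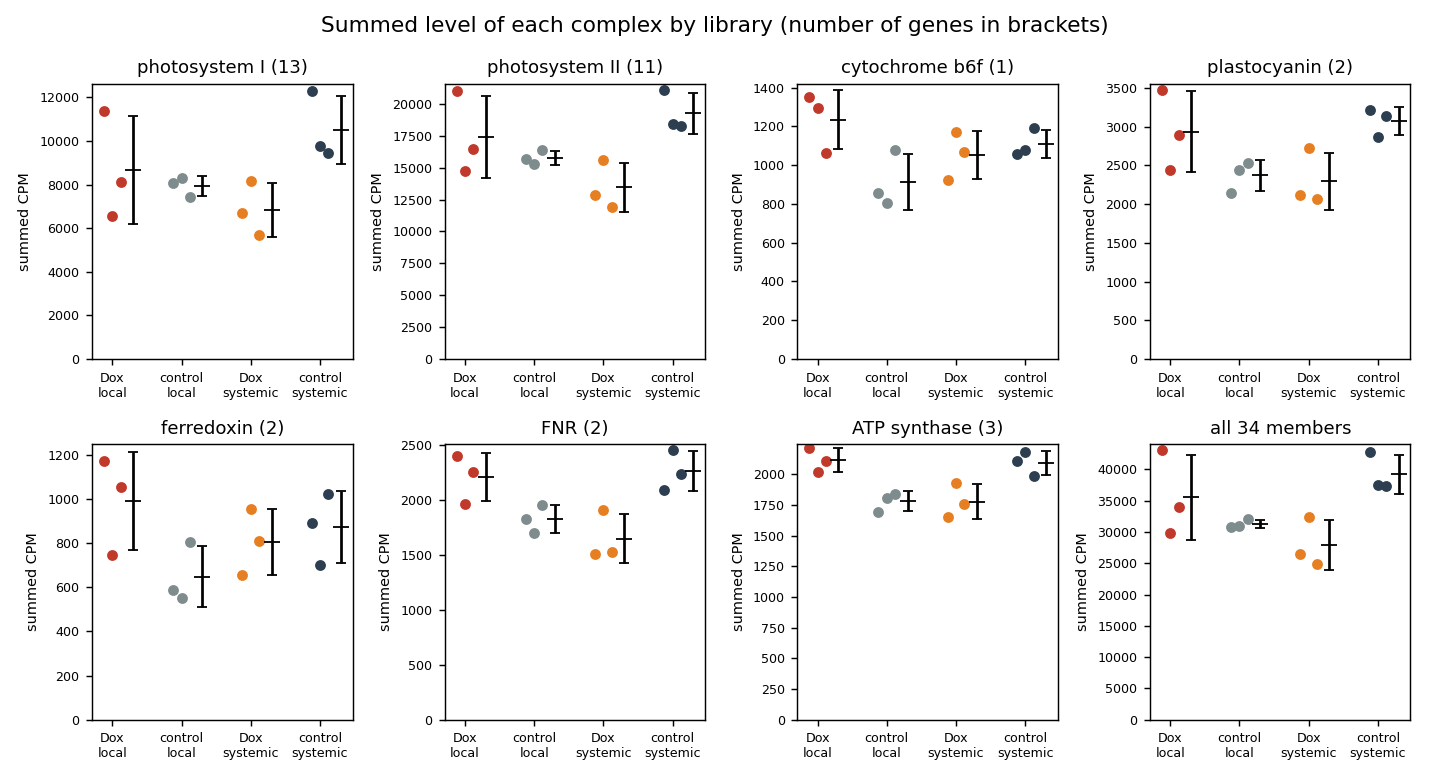
Summed CPM of the genes of each complex in every library (points), with the mean and SD of 3 libraries (bar beside them), for Dox local, control local, Dox systemic and control systemic leaves. Photosystem I and photosystem II are lower in all 3 Dox systemic libraries than in any control systemic library, whereas ferredoxin overlaps between them.

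The difference between leaf positions had opposite signs in Dox and control plants. In Dox plants all 34 genes had a lower mean in systemic than in local leaves, against 47.9% of all genes, with a median log2 fold change of -0.36 against 0.02 for all genes, though the number was 31 with upper-quartile factors and 23 with library totals. In control plants all 34 had a higher mean in systemic than in local leaves, against 49.3% of all genes, with a median of 0.33 against -0.01. These 2 comparisons share no library.

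In Dox plants the separation between libraries was no more than that of genes at large. The systemic libraries lay below the local ones in 4 genes (PSBO2, PSBS, FNR1 and PDE334), or 4 of 34 against 11.8% of all genes, and 2 were lower at an unadjusted p under 0.05, against 10.3%. One gene in all passed edgeR's test (0.00515%), which was not among the 34, and DESeq2 called 2.89% of its genes and 0 of the 34. FD1 had 80, 116 and 106 CPM in Dox systemic leaves, against 245, 87.1 and 373 CPM in Dox local leaves (log2 fold change -1.22 ± 0.58, edgeR adjusted p = 0.29), and without Dox local library 3 the log2 fold change was -0.72. PSBS had a log2 fold change of -0.81 ± 0.30 (edgeR adjusted p = 0.232). PSBO2 (AT3G50820), the second gene for the manganese-stabilising protein, had 490, 826 and 692 CPM in Dox systemic leaves and 1126, 870 and 926 CPM in Dox local leaves (-0.54 ± 0.22, edgeR adjusted p = 0.253; -0.36 without Dox systemic library 1). With library totals the median was -0.06 while that of all genes was 0.31, and no gene of the 34 kept its libraries apart. The share of all genes kept apart under that scaling is not given here, so the 2 cannot be compared. Without Dox local library 1 the median was -0.19. The count of genes without overlap became 18 without Dox systemic library 2, 19 without Dox local library 2 and 9 without Dox local library 3, where all genes gave 16.2%, 21.7% and 18.7%. The 2 genes at an unadjusted p under 0.05 became 12 without Dox local library 2, 9 without Dox systemic library 2, 1 without Dox local library 3 or Dox systemic library 3, and 0 without Dox local library 1 or Dox systemic library 1. For these counts the share of all genes in the same runs is not given here, so they cannot be compared with genes at large.

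In control plants 19 of 34 genes had every systemic library above every local one, against 8.03% of all genes, and 5 (PSAG, PSAK, PSBQ1, PSBTN and ATPD) were higher at an unadjusted p under 0.05, against 5.02%. No gene passed edgeR's test (0%, 1334 genes at an unadjusted p under 0.05), and DESeq2 called 0.268% of its genes and 0 of the 34. PSAG (AT1G55670) had 408, 241 and 223 CPM in control systemic leaves and 209, 170 and 184 CPM in control local leaves (0.63 ± 0.26, edgeR adjusted p = 0.692). PSAK, at 1709, 1549 and 1604 CPM in control systemic leaves, stood clear of 962, 1053 and 1133 CPM in control local leaves (0.63 ± 0.28, edgeR adjusted p = 0.711). PSAD2 had 339, 222 and 221 CPM in control systemic leaves, against 210, 193 and 132 CPM in control local leaves (0.55 ± 0.39, edgeR adjusted p = 0.812). Same-numbered control libraries deviated together, and with that number as a replicate block within the 6 control libraries edgeR called 71 genes of all, and 0 of the 34, with a median of 0.33. The 5 genes became 1 to 3 when any 1 control library was left out, and the share of all genes in those runs is not given here. Without control systemic library 1 the log2 fold change was 0.28 for PSAG and 0.29 for PSAD2, and 0.57 for PSAK.

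**Figure D4:**
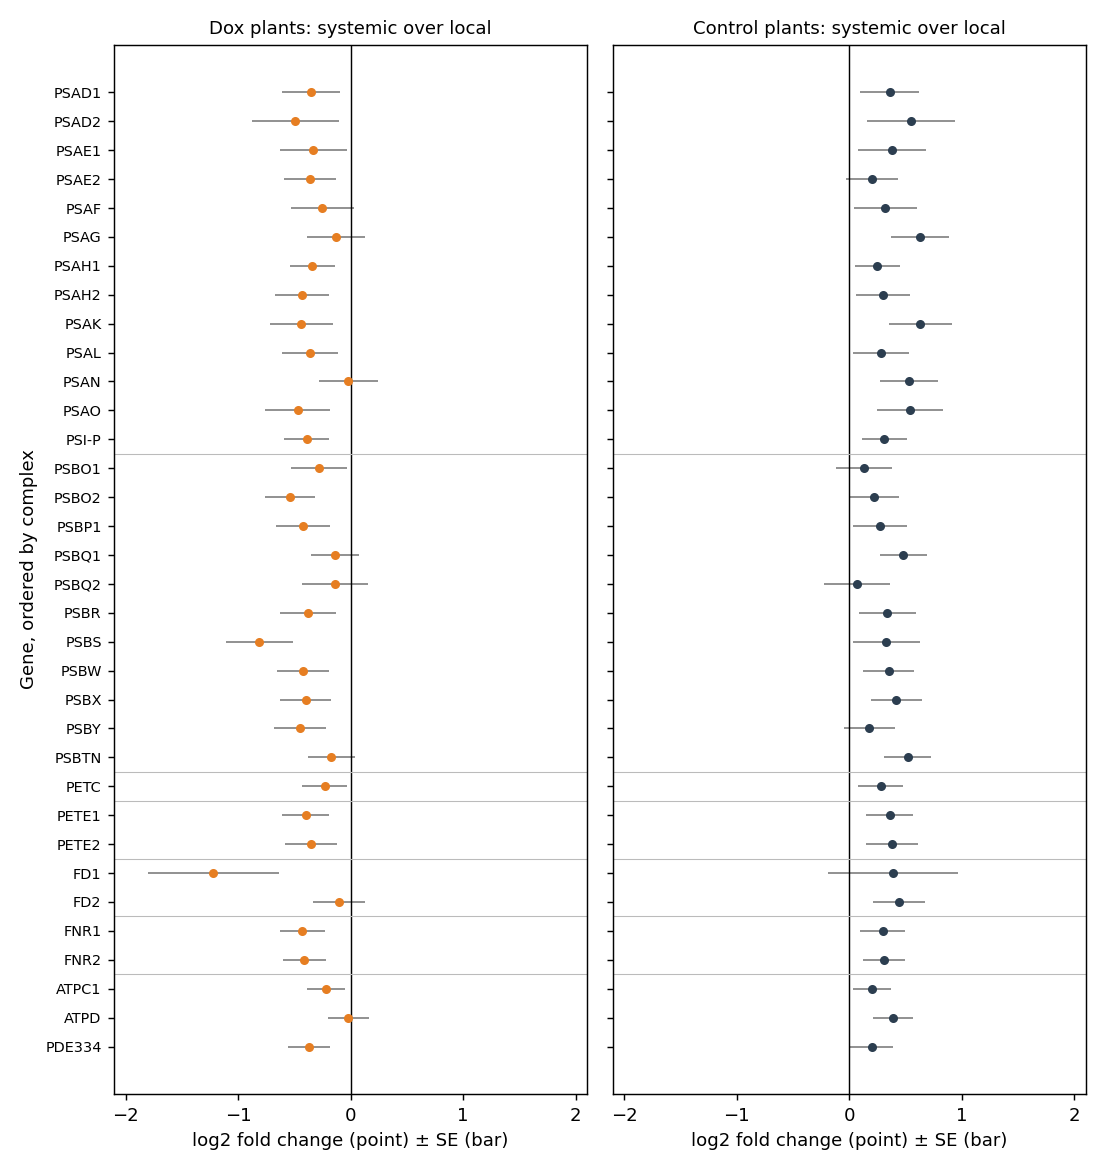
Log2 fold change of systemic over local leaves (points) with its standard error (bars) for each gene, in Dox plants (left) and control plants (right). With TMM factors all 34 points lie below 0 in Dox plants, where library totals leave 23 there, and above 0 in control plants, with medians of -0.36 and 0.33.

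The difference between the Dox effects at the 2 positions was tested as an interaction, local minus systemic. It was positive in all 34 genes (33 with library totals), against 51.1% of all genes, with a median of 0.71 on the log2 scale against 0.01. At an unadjusted p under 0.05, 12 were positive, against 3.18% of all genes. No gene passed edgeR's test (0%, 1008 genes at an unadjusted p under 0.05), and DESeq2 called 0.004% of its genes and 0 of the 34. FD1 (1.61 ± 0.82), PSBS (1.14 ± 0.42) and PSAK (1.06 ± 0.39) were largest, each with an edgeR adjusted p of 0.832, and FD1 was at 2.46 without control local library 3. This term uses the same libraries as the comparisons above and adds no independent measurement. With library totals the median was 0.43 while that of all genes was -0.24. The 12 genes became 2 without Dox systemic library 3, 3 without library 1 of either Dox group and 20 without Dox local library 2. Among controls, they became 6 when local library 1 was left out, and 5 when either local library 2 or systemic library 1 was. No share of all genes is given here for these runs, so the counts cannot be compared with genes at large.

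Several subunits have 2 nuclear genes, and the share of a pair taken by each gene does not depend on scaling between libraries. With 3 libraries against 3 the exact permutation test cannot go below p = 0.1, so no pair could pass, and 8 pairs were tested in each comparison. How reads shared by near-identical genes were counted is not given, so these shares are uncertain to that extent. PSAD1 took 83.1%, 79.5% and 83% of its pair in Dox systemic leaves, against 73.2%, 77.1% and 74.6% in control systemic leaves. The PSAD1 levels behind these shares were 506, 591 and 406 CPM in Dox systemic and 928, 745 and 649 CPM in control systemic leaves. The mean shares of 81.9% and 75% differed without overlap (exact two-sided permutation p = 0.1, adjusted 0.267).

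PETE1 took 4.94%, 5.01% and 5.3% of the plastocyanin counts in Dox systemic leaves, against 7.72%, 6.51% and 5.6% in control systemic leaves, again without overlap (exact two-sided permutation p = 0.1, adjusted 0.267). The minor plastocyanin gene was also at a smaller share in local leaves, with 5.57%, 5.61% and 4.57% with Dox and 8.68%, 6.01% and 5.7% with water (exact two-sided permutation p = 0.1, adjusted 0.4). The difference of -1.55 percentage points in local leaves was -0.606 without control local library 1, and that of -1.53 in systemic leaves was -0.975 without control systemic library 1. FNR1 took 51.4%, 50.9% and 51.4% of the FNR counts in Dox systemic leaves, against 46.1%, 47.6% and 48.6% in control systemic leaves (exact two-sided permutation p = 0.1, adjusted 0.267). The Dox systemic libraries were nearly equal to one another. FNR1 itself had 779, 972 and 784 CPM in Dox systemic and 964, 1169 and 1091 CPM in control systemic leaves, and PETE2 had 2006, 2584 and 1950 CPM in Dox systemic and 2963, 2679 and 2959 CPM in control systemic leaves.

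In local leaves the widest difference was in the PSBQ pair of the oxygen-evolving complex. PSBQ1 took 47.6%, 54.1% and 55.6% of its pair in Dox local leaves, against 35.4%, 38.4% and 47.1% in control local leaves (exact two-sided permutation p = 0.1, adjusted 0.4). The corresponding levels were 1122, 831 and 949 CPM with Dox against 636, 805 and 753 CPM with water for PSBQ1, and 1236, 705 and 757 CPM against 1163, 1289 and 846 CPM for PSBQ2. In systemic leaves the PSBQ1 share overlapped between groups, at 51.8% ± 3.96 with Dox and 47.3% ± 9.37 in controls (SD, n = 3). The PSAE, PSAH, PSBO and FD pairs overlapped in both Dox comparisons. Among them was the widest mean difference in systemic leaves, that of FD1. Its share was 12.3%, 12.1% and 13.2% in Dox systemic against 11.3%, 24.1% and 26% in control systemic leaves (exact two-sided permutation p = 0.4, adjusted 0.64).

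**Figure D5:**
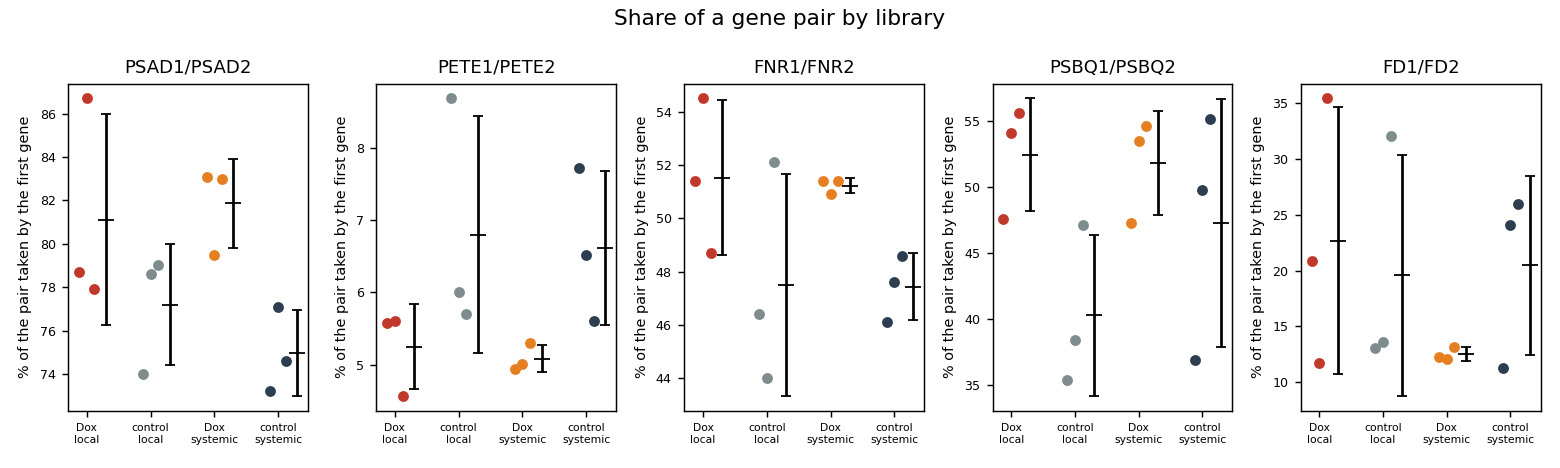
Percentage of a gene pair's counts taken by its first gene in every library (points), with the mean and SD of 3 libraries (bar beside them), on an axis that does not start at 0. In systemic leaves the PSAD1, PETE1 and FNR1 shares do not overlap between Dox and control plants, whereas the PSBQ1 and FD1 shares do.

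The other genes of the pathway were described from lists. Of 26 genes for assembly and repair of the photosystems, all tested, 22 were negative in the systemic Dox comparison with a median of -0.15, and 3 did not overlap on the lower side, where 8.41% of all genes did so. PSB27, an assembly factor of photosystem II, averaged 155 ± 27.3 CPM in Dox systemic and 234 ± 28.6 CPM in control systemic leaves (SD, n = 3). Of 27 genes for cyclic and alternative electron flow and its regulation 25 were tested, and 20 were negative with a median of -0.28. On the lower side 10 did not overlap, against the same 8.41%. On the higher side 2 did not overlap (RFNR1 and RFNR2, root-type FNR genes), a share similar to that of all genes, 1544 of 19403. PGR5, needed for cyclic flow around photosystem I, averaged 74.7 ± 17.7 CPM in Dox systemic against 115 ± 7.08 CPM in control systemic leaves, and ZEP, zeaxanthin epoxidase, 24 ± 7.07 against 51.6 ± 5.78 CPM.

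Light-harvesting proteins were negative in all 19 genes tested of 20, with a median of -0.89. DESeq2 called 6 of them lower, against 0.695% of the genes it tested called in either direction. Their median was further from 0 than that of the subunit genes in systemic leaves, and in local leaves it had the other sign, -0.33 against 0.18. LHCB1.5, the gene not tested, had 0 CPM in every library. How reads of near-identical genes were counted is not given, so the values of this family are uncertain to that extent. Counts of the 34 genes over those of the light-harvesting genes averaged 2.07 ± 0.251 in Dox local and 1.42 ± 0.332 in control local libraries, and 1.73 ± 0.422 in Dox systemic and 1.54 ± 0.461 in control systemic libraries (SD, n = 3 each). The ranges overlapped at both positions. Rubisco and Calvin cycle genes were negative in 18 of 19 in the systemic Dox comparison, with a median of -0.27, and positive in 19 of 19 in the local one, with a median of 0.39.

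The plastid-encoded subunits of the same complexes summed to 92 to 110 CPM over 20 genes in Dox systemic and 81.3 to 164 CPM in control systemic leaves. Of these 20, 15 were negative with a median of -0.43, and 1 did not overlap on the lower side, against 8.41% of all genes. The libraries were built from purified mRNA, and how much plastid RNA that step kept is not given. These low sums, with 2 genes under 1 CPM in every library, may therefore not reflect the plastid transcript levels in the leaves. Of 13 regulators of nuclear photosynthesis genes 12 were tested and 8 were positive, with a median of 0.41. HY5, a light-signalling activator, averaged 4.27 ± 1.11 CPM in Dox systemic against 2.25 ± 0.503 CPM in control systemic leaves, and GNC, a GATA factor of greening, 41.1 ± 5.52 against 20.2 ± 11.2 CPM (SD, n = 3 each). HYH, a relative of HY5, averaged 2.65 ± 1.6 CPM in Dox systemic and 1.31 ± 0.36 CPM in control systemic leaves. PIF4, a phytochrome-interacting factor, lay on the other side, at 15 ± 8.67 CPM in Dox systemic against 28.9 ± 8.79 CPM in control systemic leaves (log2 fold change -0.95), as did PIF5 at -0.40, GUN1 at -0.24 and GLK1 at -0.02. The remaining positive genes were CGA1 at 0.79, PIF3 at 0.59, GLK2 at 0.42, PIF1 at 0.40 and COP1 at 0.35, so the PIF genes had both signs. On the higher side 3 of the 12 (HY5, GNC and COP1) did not overlap, against 1544 of 19403 of all genes. None passed edgeR's test (adjusted p = 0.519 for HY5, 0.642 for GNC, 0.66 for HYH and 0.674 for PIF4).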

How the data were processed

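The authors deposited whole-number read counts per gene, without normalization, in 3 columns for each of 4 leaf groups. Per the labels' protocols, a TruSeq kit was used to purify mRNA and a SMARTER kit to build the libraries. Tools named in the submitters' processing notes are DESeq2, featureCounts 1.6.3, HISAT2, FastQC 0.11.9 and Trimmomatic 0.39. Not given in the sources used here are the genome build, annotation, strand setting and handling of reads with several matches, so reads of near-identical or antisense genes cannot be told apart.

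Counts were tested with edgeR 4.0.16 in R 4.3.3 (TMM factors of 0.787 to 1.14, filterByExpr at a minimum count of 10, quasi-likelihood test on 4 group means over 12 libraries, Benjamini-Hochberg adjustment over 19403 genes, threshold 0.05). The standard error of a log2 fold change is its size over the square root of the F statistic. DESeq2 1.42.0 was an alternative, as were upper-quartile factors, library totals, no filter, the compared groups alone, a replicate block and leaving out each library. CPM values use TMM-scaled library sizes, and TPM values use exon lengths of the RefSeq TAIR10.1 annotation, to which 32548 of 32982 identifiers and all 34 subunit genes matched. Names are those in common use for the loci: RefSeq lists FD2 as FED A, PETE2 as DRT112 and PSBS as NPQ4. No coordinates are given, since the build of the counts is not known, and promoter sequences were not used here. The edgeR fit was also run on simulated data, with planted changes larger than those of the 34 genes. That run does not show whether differences of the size seen here would be called.

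Same-numbered control local and control systemic libraries correlated in their deviations from group means (r = 0.291, 0.399 and 0.704). Their numbers were taken as pairs only in the fit with a replicate block within the controls, and the main test did not use them. Between other groups r varied with the number, from -0.286 for the local groups at number 1 to 0.462 for the systemic groups at number 3. At number 3 it was also 0.432 for control local with Dox systemic. Correlations of differently numbered libraries are not given here, so the pairing is uncertain.

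Values in every library are given for the genes with the largest log2 fold changes (6 in the systemic and 4 in the local Dox comparison, 3 in each other one). They are also given for the pairs whose shares did not overlap in a Dox comparison, a choice made by outcome. Up to 4 genes per other list at 1 CPM or more could be named. The members and lists were chosen with earlier results of these data known.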

Additional observations from a re-analysis of the deposited data

How the results depend on the processing

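No subunit gene was called by edgeR or DESeq2 under any alternative run. The number of all genes called depended on the tool. With DESeq2 it was 14 in the local and 134 in the systemic Dox comparison, 53 for position in control plants, 572 for position in Dox plants and 1 for the interaction. For position in control plants it was 1 with upper-quartile factors, with library totals and without the filter, and 71 with a replicate block within the 6 control libraries, a fit added after the data were seen. For position in Dox plants, edgeR's single call became 0 with library totals or with the compared groups alone, 2 with a replicate block across groups, and 0 to 13 when 1 library was left out. The block across groups gave a systemic median of -0.51 and changed no call among the subunit genes. With library totals, where all genes shifted as given above, the medians were -0.06 for position in Dox plants and 0.43 for the interaction. The summed log2 ratio was then 0.14 for FNR and 0.11 for ATP synthase in local leaves, and -0.13 for ATP synthase in systemic leaves. Leaving out 1 library turned the sign of 6 of the 11 pair differences that overlapped: in percentage points they ran from -0.708 to 1.09 for PSAE1, -1.82 to 4.71 for PSAH1 and -3.23 to 9.34 for FD1 in local leaves. In systemic leaves they ran from -2.58 to 0.834 for PSAE1, -1.82 to 3.55 for PSBO1 and -0.68 to 8.43 for PSBQ1. The other pair differences held their direction, with the sizes given above for PETE1. The cause of these shifts was not tested.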
